A study of Homo sapiens with 8 samples.

Results

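The comparison asked whether the response of 786-O cells to low oxygen depended on VHL. It is the effect of hypoxia in VHL+ cells minus the effect of hypoxia in VHL- cells, and it used all 8 arrays of the series. 786-O is a renal cell carcinoma (RCC) line that lacks functional VHL. VHL- cells were the untransfected line, and VHL+ cells were 786-O cells stably transfected with a VHL expression vector and kept as a bulk culture. Both cell types spent 24 h under normoxia or under hypoxia at 1% O2 with no other treatment, which gave 4 groups of 2 arrays that the labels name biological replicates. Cells with an empty vector were not analysed here, so that the presence of VHL and the transfection cannot be told apart. Of 33297 transcript clusters on the array, 19460 carried 1 gene symbol and stood for 18417 genes.

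VHL recognizes the α subunits of the hypoxia-inducible factors (HIF) after oxygen-dependent enzymes have hydroxylated them, and hands them to a ubiquitin ligase for degradation. Without VHL the α subunits persist at any oxygen tension, and genes with a HIF-binding element are transcribed in normoxia. HIF2α, encoded by EPAS1, is the main active subunit in 786-O cells. Other oxygen-responsive transcription, such as that of ATF4 in the response to amino acid shortage, does not need VHL.

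Before the comparisons, the scale of the arrays had to be considered. The median log2 signal of the arrays lay between 6.60 (VHL- hypoxia replicate 1) and 6.91 (VHL+ hypoxia replicate 1). As a result, the median difference of the hypoxia effects over all clusters was 0.21 on the log2 scale and not 0. It was 0.43 among the 4 arrays with replicate number 1 and -0.01 among those with number 2. Differences are therefore also given relative to the median of all clusters, or after quantile normalization, which brought that median to 0.00. All 9 measured markers of renal carcinoma and kidney tubule, among them PAX8, PAX2 and VIM, were above the median signal of every array. Of 13 measured markers of leukocytes, endothelium, adipocytes, hepatocytes, erythroid cells and muscle, 10 or 11 were below it on each array, and their mean log2 signal ran from 6.15 (VHL- hypoxia replicate 1) to 6.50 (VHL+ hypoxia replicate 1), the arrays with the lowest and the highest median.

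The promoters of 6 genes to which the results return are shown for the motifs that are known for their regulation. The sequences are the 250 bases before the annotated start on the strand of the gene, from RefSeq on GRCh38.p14. For CXCL8 and CXCL1, which encode chemokines, and for ICAM1, which encodes an adhesion receptor, capitals mark matches to an NF-κB motif (GGNNNTTCC on either strand).

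CXCL8 (chr4:73740319-73740568, plus strand): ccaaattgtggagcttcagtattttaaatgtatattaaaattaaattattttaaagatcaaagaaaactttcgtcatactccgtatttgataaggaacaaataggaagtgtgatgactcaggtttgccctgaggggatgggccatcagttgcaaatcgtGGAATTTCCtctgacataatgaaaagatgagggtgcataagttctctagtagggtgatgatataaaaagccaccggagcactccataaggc
CXCL1 (chr4:73869143-73869392, plus strand): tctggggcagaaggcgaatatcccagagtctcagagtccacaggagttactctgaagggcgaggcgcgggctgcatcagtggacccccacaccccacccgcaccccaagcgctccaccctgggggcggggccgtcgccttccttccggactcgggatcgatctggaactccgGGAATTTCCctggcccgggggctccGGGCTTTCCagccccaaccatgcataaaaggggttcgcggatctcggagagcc
ICAM1 (chr19:10270870-10271119, plus strand): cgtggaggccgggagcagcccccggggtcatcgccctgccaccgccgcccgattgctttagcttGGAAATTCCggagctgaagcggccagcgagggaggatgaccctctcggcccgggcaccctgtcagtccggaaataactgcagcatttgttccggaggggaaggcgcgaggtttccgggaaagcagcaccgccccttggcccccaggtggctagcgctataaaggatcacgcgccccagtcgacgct

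For EDN1 (endothelin) and ADM (adrenomedullin), both encoding vasoactive peptides, capitals mark the core of the HIF-binding element (ACGTG or GCGTG on either strand).

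EDN1 (chr6:12287769-12288018, plus strand): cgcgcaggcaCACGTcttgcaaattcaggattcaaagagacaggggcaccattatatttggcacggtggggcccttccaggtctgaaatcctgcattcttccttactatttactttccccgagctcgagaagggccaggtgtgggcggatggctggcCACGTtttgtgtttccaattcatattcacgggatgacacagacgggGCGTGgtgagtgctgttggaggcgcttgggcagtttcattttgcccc
ADM (chr11:10304823-10305072, plus strand): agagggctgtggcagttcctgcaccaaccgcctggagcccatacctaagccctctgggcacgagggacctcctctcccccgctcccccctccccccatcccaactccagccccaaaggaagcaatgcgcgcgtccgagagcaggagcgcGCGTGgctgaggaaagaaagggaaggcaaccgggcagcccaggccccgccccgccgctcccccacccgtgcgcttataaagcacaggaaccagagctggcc

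For ASNS (asparagine synthetase), a target of ATF4, capitals mark an ATF4 composite motif (TGATGNAA on either strand).

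ASNS (chr7:97872409-97872658, minus strand): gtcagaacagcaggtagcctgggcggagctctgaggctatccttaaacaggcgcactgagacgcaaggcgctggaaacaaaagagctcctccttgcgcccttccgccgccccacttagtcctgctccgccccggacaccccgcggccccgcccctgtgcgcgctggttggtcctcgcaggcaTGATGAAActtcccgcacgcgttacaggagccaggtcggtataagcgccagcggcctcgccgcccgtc

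A match is only a run of letters. Promoters were found for 14239 of the 18417 genes, and 18.8% of them held the NF-κB letters, 51.1% the HIF letters and 2.19% the ATF4 letters. The motif of a list was found in 15 of 22 promoters of the cytokines, chemokines and NF-κB targets, in 10 of 14 of the secreted HIF targets, in 17 of 25 of the glucose genes, in 18 of 23 of the intracellular HIF targets and in 4 of 28 of the ATF4 list. The HIF letters were also in 18 of 20 promoters of ER chaperones, 14 of 17 of cholesterol genes and 8 of 9 of reference genes. They were in 7 of 24 of extracellular matrix genes and 5 of 36 of histone genes. A high share of the HIF letters was thus not particular to the HIF target lists. Matches to different motifs can overlap in a promoter, and matches to the other motifs are not marked in the sequences shown. The promoters shown all hold their motif, which other genes named below do not. SLC2A1 and EDN2 had 0 matches to the HIF letters in the same window, while CA12 and PLIN2 held them. CTH, PSAT1 and DDIT3 had 0 matches to the ATF4 letters.

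The hypoxia effect was larger (more positive) in VHL+ than in VHL- cells in 86 transcript clusters and smaller in 12, which is 0.258% and 0.036% of the clusters (limma, adjusted p under 0.05). Among clusters with 1 symbol, 63 were higher and 4 were lower, which is 61 genes (0.331% of the genes) and 4 genes (0.0217%). Most of the 63 followed 1 pattern. In 47 of them the signal rose with hypoxia in VHL+ cells and did not pass in VHL- cells. In 8 it fell in VHL- cells and did not pass in VHL+ cells, 6 passed in neither cell type, NDRG1 rose in both, and CXCL1 fell in VHL- and rose in VHL+ cells. Of the 4 with a smaller effect in VHL+ cells, CTH rose and TXNIP fell in both cell types, PSAT1 rose in VHL- cells and SMOX fell in VHL+ cells. Under hypoxia 45 clusters were called higher and 175 lower in VHL- cells (0.135% and 0.526%), and 310 higher and 26 lower in VHL+ cells (0.931% and 0.0781%). Over genes, 0.19% were higher and 0.331% lower in VHL- cells, and 1.38% were higher and 0.0869% lower in VHL+ cells. The median hypoxia effect over all clusters was -0.12 in VHL- cells and 0.09 in VHL+ cells, the directions of most calls in each. The part of this shift in the counts above was not tested.

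**Figure D1:**
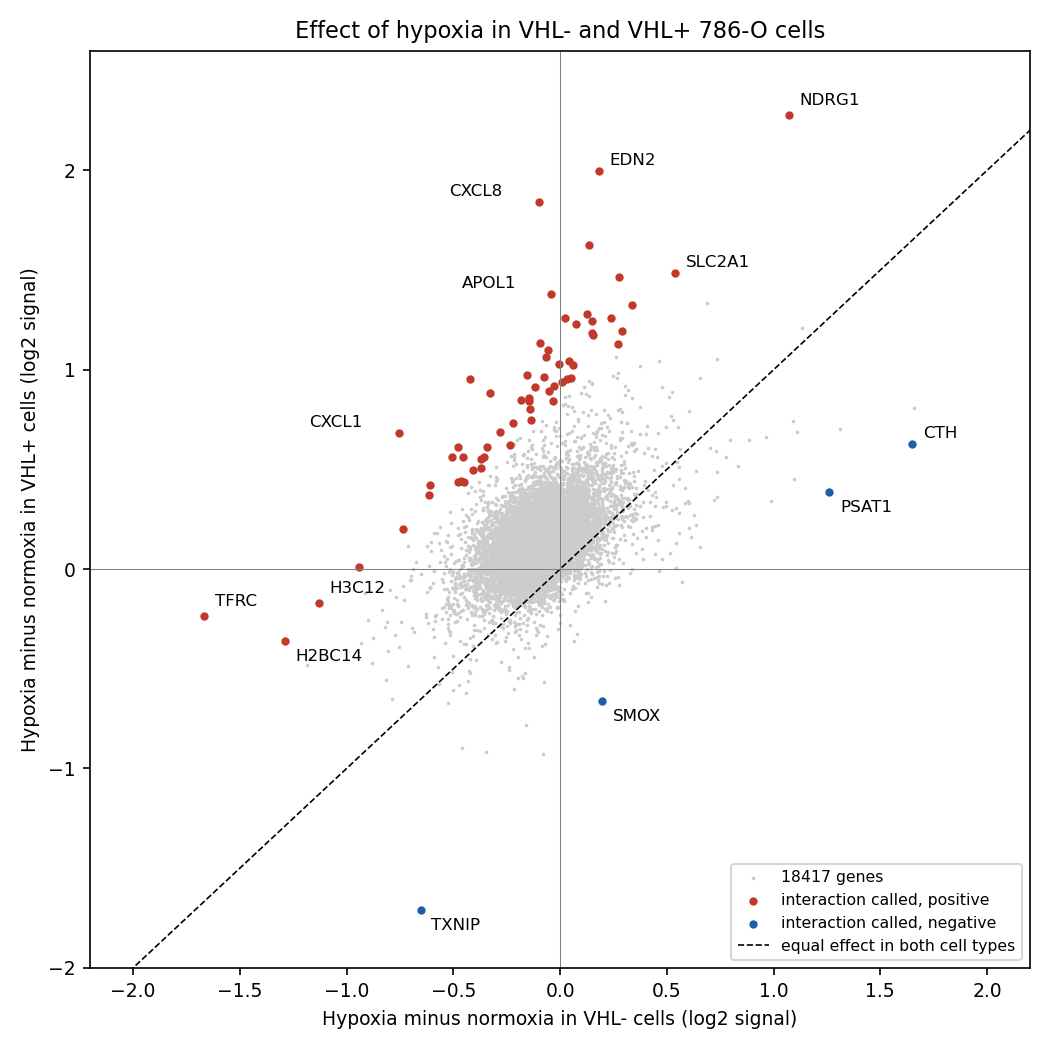
Hypoxia minus normoxia in VHL- cells (x axis) against the same in VHL+ cells (y axis), in log2 signal. Each of 18417 genes is a point, and the dashed line marks equal effects. The genes called with a larger effect in VHL+ cells (red) lie mostly above 0 on the y axis and near 0 on the x axis, while TFRC and the histone genes lie to the left. CTH and PSAT1 (blue) lie to the right, below the line.

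These calls rest on the settings of the fit. With the replicate number as a block, limma gave every cluster the same standard error of 0.22, so that a call meant a difference of at least 0.86 and the spread of the single gene had no part in it. After quantile normalization 0 clusters passed (lowest adjusted p = 0.832), with 1288 at an unadjusted p under 0.05, and with no replicate block 2 passed, neither of which had 1 symbol. Hence none of the genes named in the following passed after quantile normalization or without the block. Chance gives 1665 clusters at an unadjusted p under 0.05. The 67 clusters with 1 symbol had the same sign in both replicates, and 66 of them still did after quantile normalization, but they had been selected for the size of the difference on the same arrays, so that this is a description. Leaving out an array kept the shared standard error, except that without VHL+ hypoxia replicate 1 or 2 the prior degrees of freedom fell to 8.4 and every cluster had a standard error of its own. Calls lost without these 2 arrays therefore changed in the form of the test as well as in the arrays used. In 12 of the 67, hypoxia moved VHL+ and VHL- cells in opposite directions on every array. The share of all genes that did so is not given here, so that this count is a description.

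**Figure D2:**
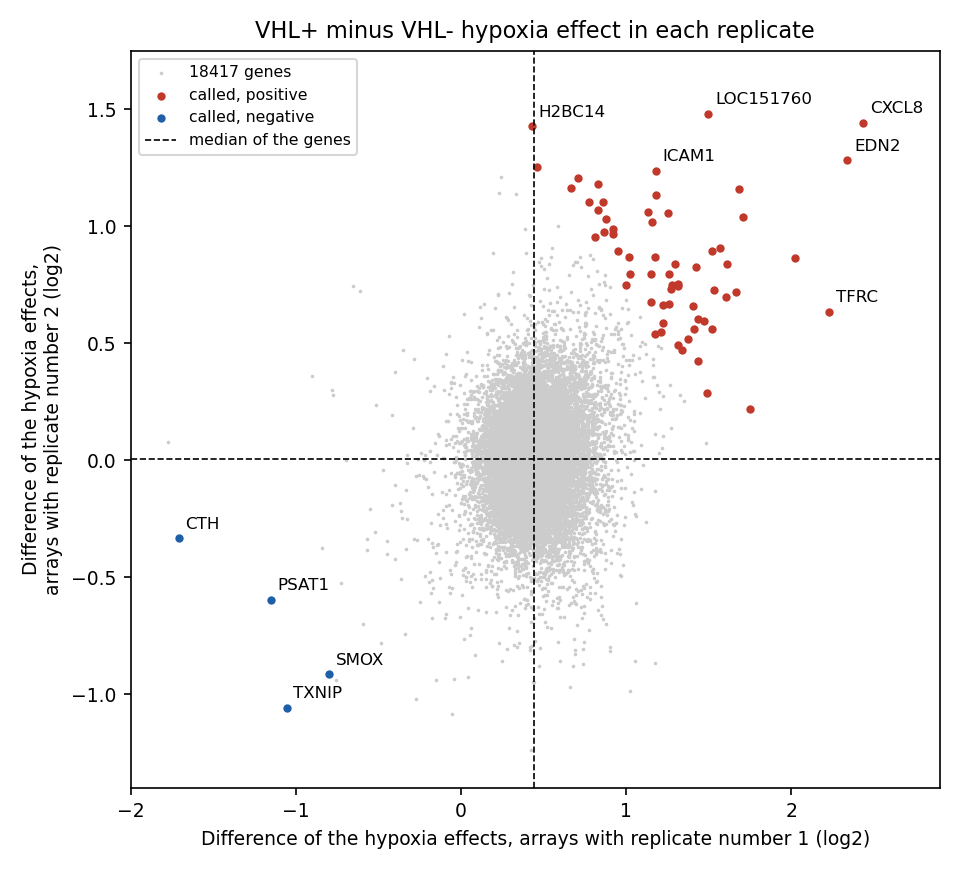
The difference of the hypoxia effects (VHL+ minus VHL-, log2) from the 4 arrays with replicate number 1 (x axis) against that from the 4 arrays with number 2 (y axis). Each of 18417 genes is a point and dashed lines mark the medians of the genes. The cloud is shifted to the right by 0.44 on the x axis and not on the y axis, the called genes share their sign in both replicates, and the Pearson correlation across genes, which are not independent, is 0.17 (0.053 over all 33297 clusters).

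Of the genes of oxygen sensing and the HIF machinery, 0 of 18 measured passed the test of a different hypoxia effect between the cell types. Over all genes 0.331% passed as higher and 0.0217% as lower, so that 0 of 18 says little about this list. VHL itself showed log2 signals of 8.24 and 8.43 in VHL- normoxia, 8.23 and 8.51 in VHL- hypoxia, 8.85 and 8.86 in VHL+ normoxia and 9.08 and 9.16 in VHL+ hypoxia. All 4 arrays of VHL+ cells were thus above all 4 of VHL- cells. Its difference of the hypoxia effects was 0.23 (adjusted p = 0.703), close to the median of all clusters. EPAS1 had signals of 10.11 and 10.31 in VHL- normoxia, 9.48 and 10.04 in VHL- hypoxia, 9.44 and 9.44 in VHL+ normoxia and 9.62 and 9.20 in VHL+ hypoxia, with a difference of 0.42 (adjusted p = 0.703). The ranges of normoxia and hypoxia were apart in VHL- cells only. For HIF1A the difference was -0.07 (adjusted p = 0.849), with hypoxia below normoxia on all arrays of both cell types. EGLN3, a HIF hydroxylase that is itself a HIF target, had the largest difference of the list with 0.60 (adjusted p = 0.476). The median of the list was 0.01 relative to all genes.

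Of the HIF target lists, hypoxia raised 10 of 19 secreted, 8 of 31 intracellular and 4 of 26 glucose genes in VHL+ cells, and 1, 2 and 0 in VHL- cells. NDRG1, a stress-responsive HIF target, had log2 signals of 10.48 and 10.30 in VHL- normoxia, 11.33 and 11.59 in VHL- hypoxia, 8.91 and 8.93 in VHL+ normoxia and 11.28 and 11.12 in VHL+ hypoxia. It rose 2.10-fold in VHL- cells and 4.85-fold in VHL+ cells. The difference of the log2 effects was 1.21 (SE 0.22, adjusted p = 0.000121), 1.00 relative to the median of all clusters, and 1.52 and 0.89 in the replicates. Under hypoxia NDRG1 reached similar signals in both cell types, while under normoxia all arrays of VHL+ cells were lower than those of VHL- cells.

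The glucose transporter gene SLC2A1 (GLUT1) had the same order of groups. Its log2 signals were 12.21 and 12.06 in VHL- normoxia, 12.63 and 12.71 in VHL- hypoxia, 10.81 and 11.30 in VHL+ normoxia and 12.61 and 12.47 in VHL+ hypoxia. It rose 2.80-fold in VHL+ cells, whereas the 1.45-fold change in VHL- cells did not pass (adjusted p = 0.0804), and the effects differed by 0.95 (SE 0.22, adjusted p = 0.0128). Carbonic anhydrase CA12, which handles pH at the cell surface, had 10.40 and 10.12, then 10.76 and 10.31 in VHL- cells and 9.01 and 9.51, then 10.55 and 10.23 in VHL+ cells, normoxia first. The normoxic and hypoxic ranges overlapped in VHL- cells and were apart in VHL+ cells, and the difference was 0.86 (SE 0.22, adjusted p = 0.0456). SLC2A1 and CA12 were the 2 of 26 genes of glucose uptake, glycolysis and lactate that passed. Hexokinase HK2 (0.72, adjusted p = 0.197) and enolase ENO2 (0.76, adjusted p = 0.14) rose in VHL+ cells without a difference that passed, and LDHA (0.25) and PGK1 (0.27) were near the median of all genes. The median of the list was 0.06 relative to all genes. The 4 members raised by hypoxia in VHL+ cells became 3 with no replicate block, 0 after quantile normalization or without VHL+ hypoxia replicate 1, 1 without VHL+ hypoxia replicate 2 and 2 without VHL+ normoxia replicate 1. Without VHL+ normoxia replicate 2 the differences were 0.93 for HK2 and 1.06 for ENO2. The median of all clusters was then 0.28, against 0.21 with all arrays.

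Among the secreted HIF targets, EDN1 and ADM passed, 2 of 19. EDN1, whose promoter holds 3 of the HIF letters shown, had log2 signals of 7.13 and 8.05 in VHL- normoxia, 7.34 and 8.14 in VHL- hypoxia, 6.54 and 6.91 in VHL+ normoxia and 7.88 and 8.06 in VHL+ hypoxia. Only in VHL+ cells were the ranges apart, and the difference was 1.10 (SE 0.22, adjusted p = 0.00114), with 1.13 and 1.06 in the replicates. On 1 array of VHL+ cells under normoxia EDN1 was below the array median. ADM had 9.30 and 9.56, then 9.49 and 9.96 in VHL- cells and 7.51 and 8.08, then 9.03 and 8.95 in VHL+ cells, with a difference of 0.90 (SE 0.22, adjusted p = 0.0228). Here hypoxia left VHL+ cells below every array of VHL- cells.

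EDN2, the gene of a further endothelin and outside the lists, behaved otherwise. Its log2 signals were 6.98 and 7.13 in VHL- normoxia, 6.98 and 7.51 in VHL- hypoxia, 7.38 and 7.11 in VHL+ normoxia and 9.71 and 8.76 in VHL+ hypoxia. VHL+ cells under hypoxia stood above the other groups, which were alike and near the array median. With hypoxia EDN2 rose 3.99-fold in VHL+ cells, and the difference was 1.81 (SE 0.22, adjusted p = 3.95e-12), 1.61 relative to the median of all clusters. The angiogenic factor VEGFA did not pass (0.46, adjusted p = 0.703), although it rose in VHL+ cells (0.69). Its difference was 0.93 without VHL+ normoxia replicate 2, where the median of all clusters was 0.28 against 0.21 with all arrays. STC2 was the secreted target raised in VHL- cells. In VHL+ cells 3 were raised with no replicate block, 0 after quantile normalization or without VHL+ hypoxia replicate 1, 2 without VHL+ hypoxia replicate 2 and 4 without VHL+ normoxia replicate 1. The median difference was 0.11 relative to all genes, with 0.12 and 0.23 in the replicates.

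Of 31 intracellular HIF targets, NDRG1, CCND1 and PLIN2 passed. CCND1 encodes cyclin D1, a HIF2α target of RCC cells. Its log2 signals were 11.06 and 11.40 in VHL- normoxia, 10.86 and 11.45 in VHL- hypoxia, 9.31 and 9.99 in VHL+ normoxia and 10.63 and 10.61 in VHL+ hypoxia, and the difference was 1.04 (SE 0.22, adjusted p = 0.00313). VHL+ cells under hypoxia stayed below all arrays of VHL- cells. PLIN2, a coat protein of lipid droplets, had 9.80 and 10.05, then 9.12 and 9.83 in VHL- cells and 8.98 and 9.34, then 9.57 and 9.86 in VHL+ cells (difference 1.01, SE 0.22, adjusted p = 0.00411). DDIT4, an inhibitor of mTORC1 signalling, rose in VHL- (1.13) and VHL+ cells (1.21), and the difference of 0.07 did not pass (SE 0.22, adjusted p = 0.842). The median of the list was 0.13 relative to all genes, and the 8 members raised in VHL+ cells became 1 with no replicate block or after quantile normalization, 2 without either array of VHL+ hypoxia, 5 without VHL+ normoxia replicate 1 or any one array of VHL- cells, and 7 without VHL+ normoxia replicate 2.

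After quantile normalization the differences of NDRG1, SLC2A1, CA12, EDN1, EDN2, ADM, CCND1 and PLIN2 ran from 0.62 to 1.52 (unadjusted p from 0.0003 to 0.0512). None of these 8 genes passed without VHL+ hypoxia replicate 1 (differences from 0.65 to 1.27, adjusted p from 0.529 to 0.9999), and EDN2 alone passed without VHL+ hypoxia replicate 2 (the others from 0.97 to 1.35, adjusted p from 0.0732 to 0.19). Of the 8, 2 passed without VHL- normoxia replicate 1 (the others from 0.76 to 1.10, adjusted p from 0.0848 to 0.968), 2 without VHL- hypoxia replicate 1 (from 0.79 to 1.02, adjusted p from 0.0627 to 0.466), 4 without VHL+ normoxia replicate 1 (from 0.43 to 0.85, adjusted p from 0.15 to 1.0), 3 without VHL- normoxia replicate 2 (from 0.86 to 1.09, adjusted p from 0.0562 to 0.372), 6 without VHL- hypoxia replicate 2 (SLC2A1 and CA12 from 0.65 to 0.95, adjusted p from 0.0901 to 0.578) and all 8 without VHL+ normoxia replicate 2.

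**Figure D3:**
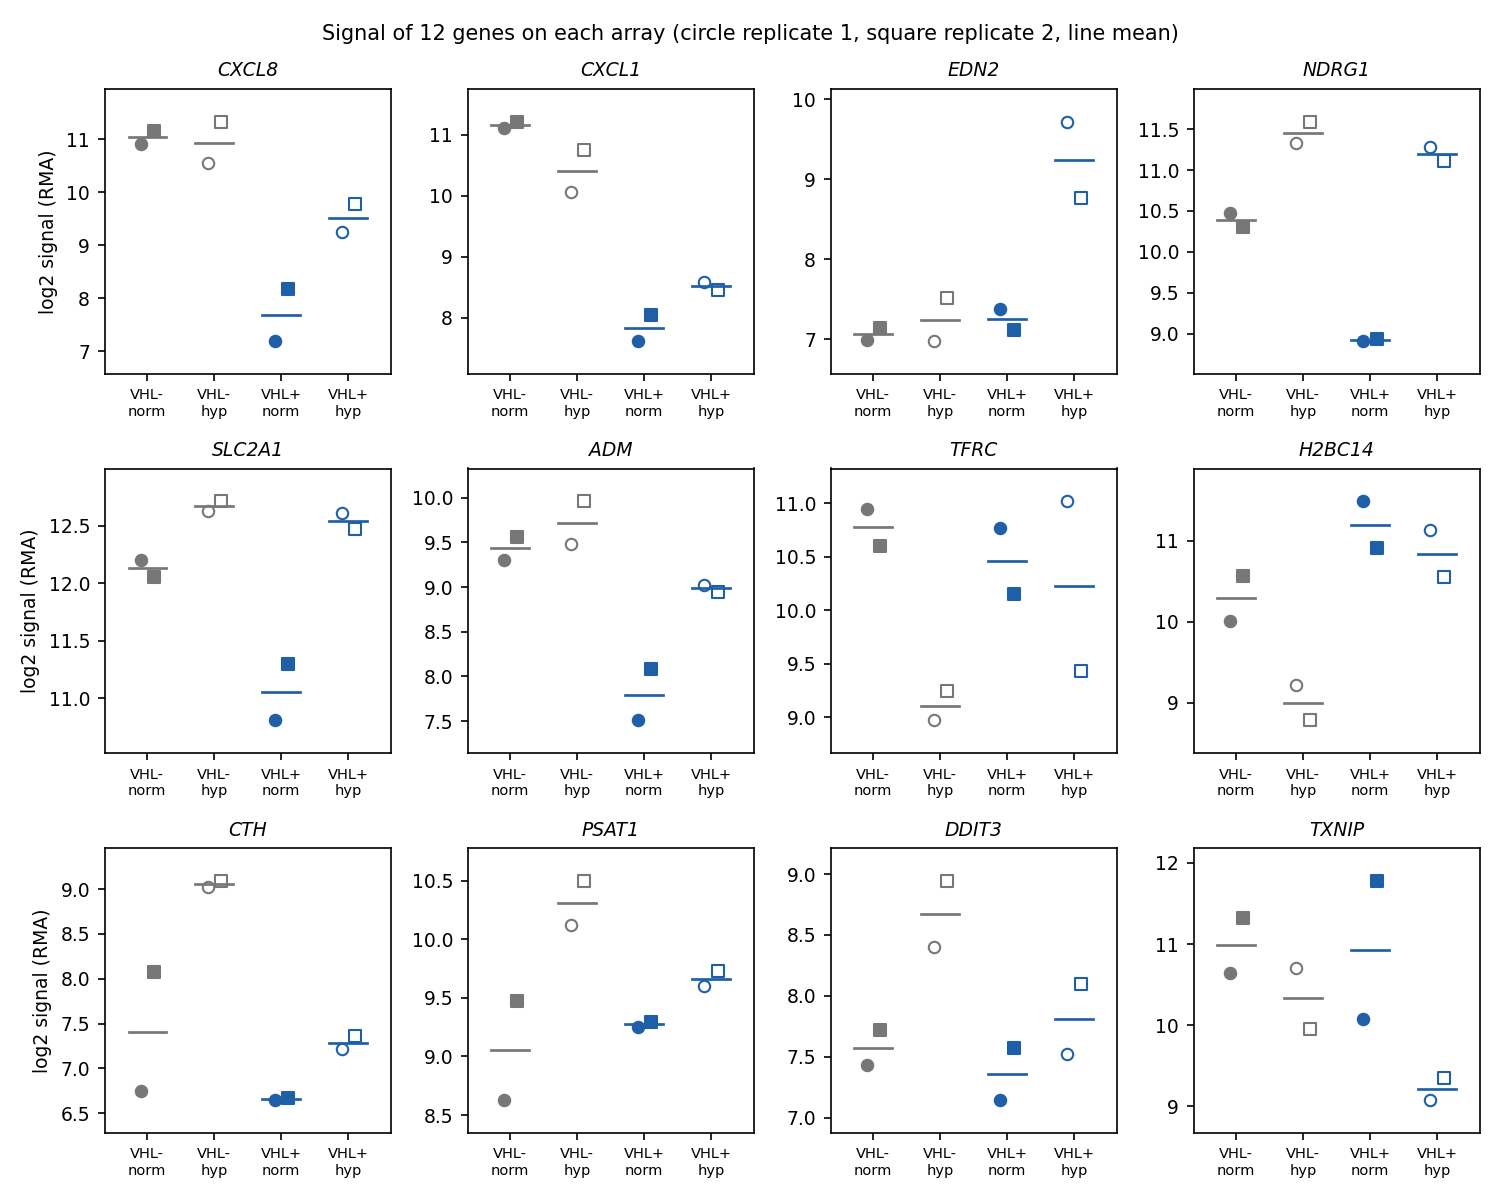
Log2 signal of 12 genes by group, with every array as a symbol; circles are replicate 1, squares replicate 2, filled symbols normoxia, open symbols hypoxia, and lines the group means. The y axes differ between panels and do not start at 0. CXCL8, CXCL1, NDRG1, SLC2A1 and ADM are lowest in VHL+ cells under normoxia, EDN2 is raised in 1 group, and CTH, PSAT1 and DDIT3 are highest in VHL- cells under hypoxia.

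The cytokine, chemokine and NF-κB target genes contained the largest difference of all genes and the largest share of calls among the lists, with 6 of 26 higher and 0 lower. Over all genes 0.331% were higher and 0.0217% lower. The lists were written with earlier results of these data known, so that their ranking is a description. CXCL8, which encodes the neutrophil chemokine interleukin-8, had log2 signals of 10.92 and 11.16 in VHL- normoxia, 10.55 and 11.33 in VHL- hypoxia, 7.19 and 8.17 in VHL+ normoxia and 9.26 and 9.79 in VHL+ hypoxia. Normoxia and hypoxia overlapped in VHL- cells, and in VHL+ cells both hypoxic arrays were above both normoxic ones but below every array of VHL- cells. CXCL8 rose 3.59-fold with hypoxia in VHL+ cells. The difference was 1.94 (SE 0.22, adjusted p = 4.75e-14), 1.73 relative to the median of all clusters, and 2.44 and 1.44 in the replicates.

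CXCL1, a chemokine of the same family, moved in opposite directions. Its log2 signals were 11.11 and 11.21 in VHL- normoxia, 10.06 and 10.75 in VHL- hypoxia, 7.62 and 8.05 in VHL+ normoxia and 8.59 and 8.45 in VHL+ hypoxia. It fell in VHL- cells (-0.76, SE 0.16, adjusted p = 0.000965) and rose in VHL+ cells (0.68, SE 0.16, adjusted p = 0.00362), and the ranges were apart in both. The difference of the effects was 1.44 (SE 0.22, adjusted p = 5.11e-07).

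ICAM1, the adhesion receptor for leukocyte integrins, had 10.58 and 10.49 in VHL- normoxia, 10.46 and 9.95 in VHL- hypoxia, 9.74 and 10.67 in VHL+ normoxia and 10.81 and 11.37 in VHL+ hypoxia. The difference was 1.21 (SE 0.22, adjusted p = 0.00012), and in contrast to CXCL8 and CXCL1 its highest signals were those of VHL+ cells under hypoxia. TNFAIP3 encodes the NF-κB inhibitor A20. It had 9.10 and 8.77, then 9.09 and 9.04 in VHL- cells and 6.97 and 7.64, then 8.56 and 8.60 in VHL+ cells, with a difference of 1.15 (SE 0.22, adjusted p = 0.000352). The remaining 2 members that passed, outside the rule for naming genes and chosen after their values were seen, were NFKBIA (1.12, adjusted p = 0.000632), the gene of the NF-κB inhibitor IκBα, and the monocyte chemokine CCL2 (0.92, adjusted p = 0.0183). NFKBIA did not pass without VHL+ hypoxia replicate 1 or 2 or without VHL- normoxia or VHL- hypoxia replicate 1 (from 0.98 to 1.17, adjusted p from 0.0777 to 0.56). The difference of CCL2 turned negative without VHL- normoxia replicate 1 (-0.46), VHL+ normoxia replicate 1 (-0.082), VHL- hypoxia replicate 2 (-0.12) or VHL+ hypoxia replicate 2 (-0.49), and it was 2.34 without VHL+ hypoxia replicate 1 (adjusted p = 0.9999) and 1.92 to 2.30 without the other arrays, so that its direction is not settled. Replicates of CCL2 lay far apart in VHL- cells, with 10.75 and 7.53 under normoxia and 10.52 and 7.82 under hypoxia.

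Within the list the differences ran from -0.04 (IL11) to 1.94 (CXCL8), and 18 of 26 were above the median of all genes. IL6 (0.67, adjusted p = 0.297), RELB (0.54) and NFKB1 (0.52) did not pass, and CXCL2 (0.29), CXCL3 (0.14) and CXCL5 (0.11) were near the gene median. The median of the list was 0.31 relative to all genes, with 0.35 and 0.20 in the replicates, and 0.27 after quantile normalization. Hypoxia raised 12 of the 26 in VHL+ cells and none in VHL- cells, where it lowered CXCL1. Over all genes it raised 1.38% in VHL+ cells, and in VHL- cells it raised 0.19% and lowered 0.331%. In VHL+ cells 4 members were raised with no replicate block and 0 after quantile normalization, and 1 was raised without VHL+ hypoxia replicate 1 and 4 without VHL+ hypoxia replicate 2 or VHL+ normoxia replicate 1.

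Quantile normalization left differences from 0.89 to 1.71 for CXCL8, CXCL1, ICAM1 and TNFAIP3 (unadjusted p from 0.0001 to 0.0753). Leaving out VHL+ hypoxia replicate 1 ended all 4 calls (differences from 1.12 to 1.87, adjusted p from 0.154 to 0.9999), ICAM1 and TNFAIP3 did not pass without VHL+ hypoxia replicate 2 (0.98 and 1.18, adjusted p = 0.19 and 0.191), VHL- normoxia replicate 1 (from 0.88 to 1.00, adjusted p from 0.227 to 0.518) or VHL+ normoxia replicate 1 (0.74 and 0.76, adjusted p from 0.345 to 0.4), and ICAM1 did not pass without VHL- hypoxia replicate 2 (0.72, adjusted p = 0.453).

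Further genes with large differences belonged to other functions. LOC151760, an uncharacterized locus, had signals of 6.74 and 6.84 in VHL- normoxia, 6.76 and 7.09 in VHL- hypoxia, 6.70 and 7.12 in VHL+ normoxia and 8.22 and 8.85 in VHL+ hypoxia. As with EDN2, 3 groups were near the array median and VHL+ cells under hypoxia stood apart (difference 1.49, SE 0.22, adjusted p = 1.36e-07, with 1.50 and 1.48 in the replicates). APOL1, the gene of a trypanolytic apolipoprotein, had signals of 10.30 and 10.15, then 10.29 and 10.07 in VHL- cells and 9.50 and 10.11, then 11.18 and 11.19 in VHL+ cells, and the difference was 1.42 (SE 0.22, adjusted p = 6.76e-07). VHL+ cells under hypoxia were above all other arrays.

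AHR, the receptor for dioxins and other aryl hydrocarbons and a partner of ARNT as HIFα is, was lowest in VHL+ cells under normoxia and reached the range of VHL- cells under hypoxia. Its signals were 10.17 and 10.38 in VHL- normoxia, 9.93 and 10.44 in VHL- hypoxia, 8.61 and 9.20 in VHL+ normoxia and 9.98 and 10.10 in VHL+ hypoxia. The difference was 1.23 (SE 0.22, adjusted p = 9.02e-05), and after quantile normalization it was 0.97 with the smallest p of all clusters with 1 symbol (unadjusted p = 0.000118, adjusted p = 0.859). The genes of the vesicle protein SYTL3 (1.37), the microtubule-associated protein MAP7D2 (1.24), the sulfotransferase GAL3ST1 (1.19), which makes sulfatide, and the laminin chain LAMB3 (1.15) also had larger effects in VHL+ cells (adjusted p from 2.38e-06 to 0.000351). For LAMB3 the signals were 8.11 and 8.09 in VHL+ normoxia and 9.46 and 9.20 in VHL+ hypoxia, against 9.63 and 9.16, then 9.73 and 9.21 in VHL- cells. LAMB3 was the one of 31 extracellular matrix genes that passed, where 0.331% of all genes passed as higher. The list had a median of 0.02 relative to all genes.

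Of 30 interferon-stimulated genes, OAS1, which makes the activator of the antiviral RNase L, passed. It had 7.11 and 6.87 in VHL- normoxia, 6.92 and 6.78 in VHL- hypoxia, 6.94 and 7.06 in VHL+ normoxia and 7.56 and 7.93 in VHL+ hypoxia (difference 0.88, SE 0.22, adjusted p = 0.0313). The signals of VHL+ cells under hypoxia were above all others. The median of the list was 0.16 relative to all genes, with 0.02 and 0.24 in the replicates, and 6 of the 30 rose with hypoxia in VHL+ cells and 0 in VHL- cells. Over all genes 1.38% rose in VHL+ cells and 0.19% in VHL- cells, and the difference passed as higher in 0.331%. In VHL+ cells 2 rose with no replicate block, 0 after quantile normalization or without either array of VHL+ hypoxia, and 3 without VHL+ normoxia replicate 1.

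After quantile normalization these 8 genes (LOC151760, APOL1, SYTL3, MAP7D2, AHR, GAL3ST1, LAMB3 and OAS1) had differences from 0.61 to 1.20 (unadjusted p from 0.0001 to 0.107). LOC151760 alone passed without VHL+ hypoxia replicate 1 (the others from 0.57 to 1.39, adjusted p from 0.399 to 0.9999) and SYTL3 alone without VHL+ hypoxia replicate 2 (from 0.66 to 1.90, adjusted p from 0.0651 to 0.19), while 5 passed without VHL- normoxia replicate 1 (the others from 0.70 to 1.13, adjusted p from 0.0565 to 0.968) or VHL- hypoxia replicate 1 (from 0.80 to 0.99, adjusted p from 0.087 to 0.458), 6 without VHL+ normoxia replicate 1 (from 0.82 to 0.95, adjusted p from 0.0557 to 0.2) or VHL- normoxia replicate 2 (from 0.79 to 1.07, adjusted p from 0.073 to 0.553), and all but OAS1 without VHL- hypoxia replicate 2 (0.78, adjusted p = 0.358).

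In TFRC and the histone genes the difference came from a fall in VHL- cells. TFRC encodes the transferrin receptor for iron uptake and was written into the list of reference genes. Its log2 signals were 10.95 and 10.60 in VHL- normoxia, 8.97 and 9.24 in VHL- hypoxia, 10.77 and 10.15 in VHL+ normoxia and 11.02 and 9.43 in VHL+ hypoxia. It fell by 1.67 on the log2 scale in VHL- cells (SE 0.16, adjusted p = 1.7e-21), to 0.315 of its normoxic signal, whereas the change of -0.24 in VHL+ cells did not pass (adjusted p = 0.929). The replicates of VHL+ cells under hypoxia lay 1 on each side of the normoxic range. The difference was 1.43 (SE 0.22, adjusted p = 5.49e-07), but 2.23 in replicate 1 and 0.63 in replicate 2. The other 10 reference genes did not pass, and ACTB had a difference of 0.06 (adjusted p = 0.875).

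Replication-dependent histone genes are transcribed in S phase and their mRNA ends in a stem-loop. Of 40 measured, hypoxia lowered 14 in VHL- cells and 0 in VHL+ cells, and 3 differed between the cell types. Over all genes hypoxia lowered 0.331% in VHL- cells and 0.0869% in VHL+ cells, and the difference passed as higher in 0.331%. The median hypoxia effect over all clusters was -0.12 in VHL- cells, and its part in these counts was not tested. H2BC14 had log2 signals of 10.01 and 10.57 in VHL- normoxia, 9.22 and 8.78 in VHL- hypoxia, 11.49 and 10.91 in VHL+ normoxia and 11.13 and 10.55 in VHL+ hypoxia. It fell by 1.29 in VHL- cells (SE 0.16, adjusted p = 2.04e-12), and the difference was 0.93 (SE 0.22, adjusted p = 0.0161), with 0.43 and 1.43 in the replicates. H3C12 had 9.11 and 9.72, then 8.39 and 8.18 in VHL- cells and 8.61 and 8.60, then 8.60 and 8.26 in VHL+ cells (difference 0.96, SE 0.22, adjusted p = 0.0109). H2BC3 (0.95, adjusted p = 0.0112) was close to the array median in 3 of the groups, with 7.36 and 7.48 in VHL- normoxia as its highest signals. Histone genes are near-identical copies whose probes can share signal, so that a single member is uncertain. RNA came from whole cultures, and fewer cells with a transcript and less transcript per cell cannot be told apart.

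The median of the histone list was 0.14 relative to all genes, and it was 0.00 in replicate 1 and 0.32 in replicate 2. The list of 40 cell cycle and DNA replication genes had a median of 0.09 and 0 calls. CDC6 (0.64, adjusted p = 0.377) and CDC25A (0.60, adjusted p = 0.475) had its smallest p values. In VHL- cells 5 histone genes fell with no replicate block, 0 after quantile normalization or without either array of VHL+ hypoxia, 1 without VHL- normoxia replicate 2, 6 without VHL- hypoxia replicate 1 and 9 without VHL- hypoxia replicate 2.

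For TFRC, H3C12, H2BC3 and H2BC14 the differences after quantile normalization ran from 0.69 to 1.19 (unadjusted p from 0.0323 to 0.137). None passed without VHL+ hypoxia replicate 1 (from 0.71 to 0.93, adjusted p = 0.9999) or replicate 2 (from 0.98 to 2.11, adjusted p from 0.0537 to 0.19), TFRC did not pass without VHL- hypoxia replicate 1 (0.87, adjusted p = 0.258), the histone genes did not pass without VHL- normoxia replicate 2 (from 0.38 to 0.88, adjusted p from 0.326 to 0.783) or VHL- hypoxia replicate 2 (from 0.66 to 0.81, adjusted p from 0.281 to 0.554), H2BC3 without VHL- normoxia replicate 1 (1.03, adjusted p = 0.18) or VHL+ normoxia replicate 1 (0.71, adjusted p = 0.506), and H2BC14 without VHL+ normoxia replicate 2 (0.72, adjusted p = 0.194).

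Genes called with a smaller, or more negative, hypoxia effect in VHL+ cells were few. The calls were made against 0 and not against the median of all clusters, which was 0.21. Relative to that median the differences were -1.26 for TXNIP, -1.23 for CTH, -1.08 for PSAT1 and -1.06 for SMOX. CTH encodes cystathionine γ-lyase, which makes cysteine, and PSAT1 an enzyme of serine synthesis, and both are targets of ATF4. CTH had log2 signals of 6.75 and 8.07 in VHL- normoxia, 9.03 and 9.09 in VHL- hypoxia, 6.65 and 6.67 in VHL+ normoxia and 7.22 and 7.36 in VHL+ hypoxia. It rose 3.14-fold in VHL- and 1.54-fold in VHL+ cells, and both ranges were apart. The difference was -1.02 (SE 0.22, adjusted p = 0.00366), with -1.71 and -0.33 in the replicates, and the normoxic signals were below the array median on 1 array of VHL- cells and on both arrays of VHL+ cells.

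PSAT1 had 8.63 and 9.47 in VHL- normoxia, 10.13 and 10.50 in VHL- hypoxia, 9.26 and 9.30 in VHL+ normoxia and 9.60 and 9.73 in VHL+ hypoxia. It rose 2.40-fold in VHL- cells and its 1.31-fold change in VHL+ cells did not pass (adjusted p = 0.436). The difference was -0.87 (SE 0.22, adjusted p = 0.0358).

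These were the 2 of 35 genes of the ATF4 and amino acid stress response that passed, where 0.0217% of all genes passed as lower. Hypoxia raised 18 of the 35 in VHL- cells and 11 in VHL+ cells and lowered 0 in either. Over all genes it raised 0.19% in VHL- cells and 1.38% in VHL+ cells. ASNS, whose promoter holds the ATF4 letters shown, had 7.55 and 8.26, then 9.07 and 9.37 in VHL- cells and 7.30 and 7.35, then 7.97 and 8.08 in VHL+ cells. It rose in both, by 1.31 and 0.70, and the difference of -0.61 did not pass (adjusted p = 0.437). DDIT3 (CHOP), a transcription factor of the same response, had 7.43 and 7.72, then 8.40 and 8.94 in VHL- cells and 7.15 and 7.57, then 7.52 and 8.09 in VHL+ cells, with a difference of -0.65 (adjusted p = 0.353). Relative to the median of all clusters the differences of ASNS and DDIT3 were -0.82 and -0.85. After quantile normalization that of DDIT3 was -0.92 (limma, unadjusted p = 0.000482, adjusted p = 0.9999). The median difference of the list was -0.43 relative to all genes and -0.48 after quantile normalization, but it was -0.70 in replicate 1 and -0.01 in replicate 2. Members ran from -1.02 (CTH) to 0.65 (TRIB3, a pseudokinase that rose in both cell types). In VHL- and VHL+ cells 4 and 2 members were raised with no replicate block and 0 in both after quantile normalization. Leaving out an array gave 3 to 20 members raised in VHL- cells and 0 to 10 in VHL+ cells, the fewest without VHL+ hypoxia replicate 1 (3 and 0).

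TXNIP encodes an inhibitor of thioredoxin and of glucose uptake. It had signals of 10.65 and 11.32 in VHL- normoxia, 10.71 and 9.95 in VHL- hypoxia, 10.08 and 11.78 in VHL+ normoxia and 9.08 and 9.35 in VHL+ hypoxia. It fell by 0.65 in VHL- cells, where the ranges overlapped, and by 1.71 in VHL+ cells (SE 0.16, adjusted p = 2.2e-23), where they did not. The difference was -1.06 in all and in each replicate (SE 0.22, adjusted p = 0.0023), although the normoxic replicates of VHL+ cells were 10.08 and 11.78. SMOX, the gene of spermine oxidase, had 9.52 and 9.67, then 9.91 and 9.68 in VHL- cells and 8.30 and 9.09, then 7.89 and 8.18 in VHL+ cells. It fell in VHL+ cells (-0.66, adjusted p = 0.00613) and its change of 0.20 in VHL- cells did not pass (difference -0.86, SE 0.22, adjusted p = 0.0456).

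IL18, the gene of an inflammasome-dependent cytokine, lay just outside the threshold with -0.85 (adjusted p = 0.0519). With an array left out its difference ran from -0.96 to -0.73. It was below the array median on all 4 arrays of VHL- cells (6.24 and 6.45 under normoxia, 6.08 and 6.45 under hypoxia), and in VHL+ cells it had 8.29 and 8.40 under normoxia and 7.37 and 7.46 under hypoxia, where it fell by 0.93. Relative to the median of all clusters the difference of IL18 was -1.06. After quantile normalization it was -1.11 (limma, unadjusted p = 0.000279, adjusted p = 0.9999). The remaining genes with the smallest p values among the negative differences did not pass either. They were the NKG2D ligand ULBP1 (-0.65), the phosphatase PTPN13 (-0.63), the matricellular CCN2 (-0.63), the EGF family ligand EREG (-0.57) and the Rac activator DOCK4 (-0.54), with adjusted p from 0.353 to 0.62. With an array left out the difference of EREG ran from -1.29 to 0.15.

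After quantile normalization the differences of TXNIP, CTH, PSAT1 and SMOX ran from -1.34 to -1.10 (unadjusted p from 0.0089 to 0.105). None of the 4 passed without VHL- normoxia replicate 1 (from -0.92 to -0.40, adjusted p from 0.392 to 0.968), VHL- hypoxia replicate 1 (from -0.89 to -0.24, adjusted p from 0.219 to 0.9999), VHL+ hypoxia replicate 1 (from -1.19 to -0.83, adjusted p = 0.9999) or VHL+ hypoxia replicate 2 (from -0.92 to -0.73, adjusted p from 0.19 to 0.286), PSAT1 and CTH did not pass without VHL+ normoxia replicate 1 (from -0.78 to -0.67, adjusted p from 0.296 to 0.65), SMOX and TXNIP without VHL+ normoxia replicate 2 (from -0.50 to -0.24, adjusted p from 0.433 to 0.544), SMOX without VHL- normoxia replicate 2 (-0.80, adjusted p = 0.546) and PSAT1 without VHL- hypoxia replicate 2 (-0.86, adjusted p = 0.206).

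**Figure D4:**
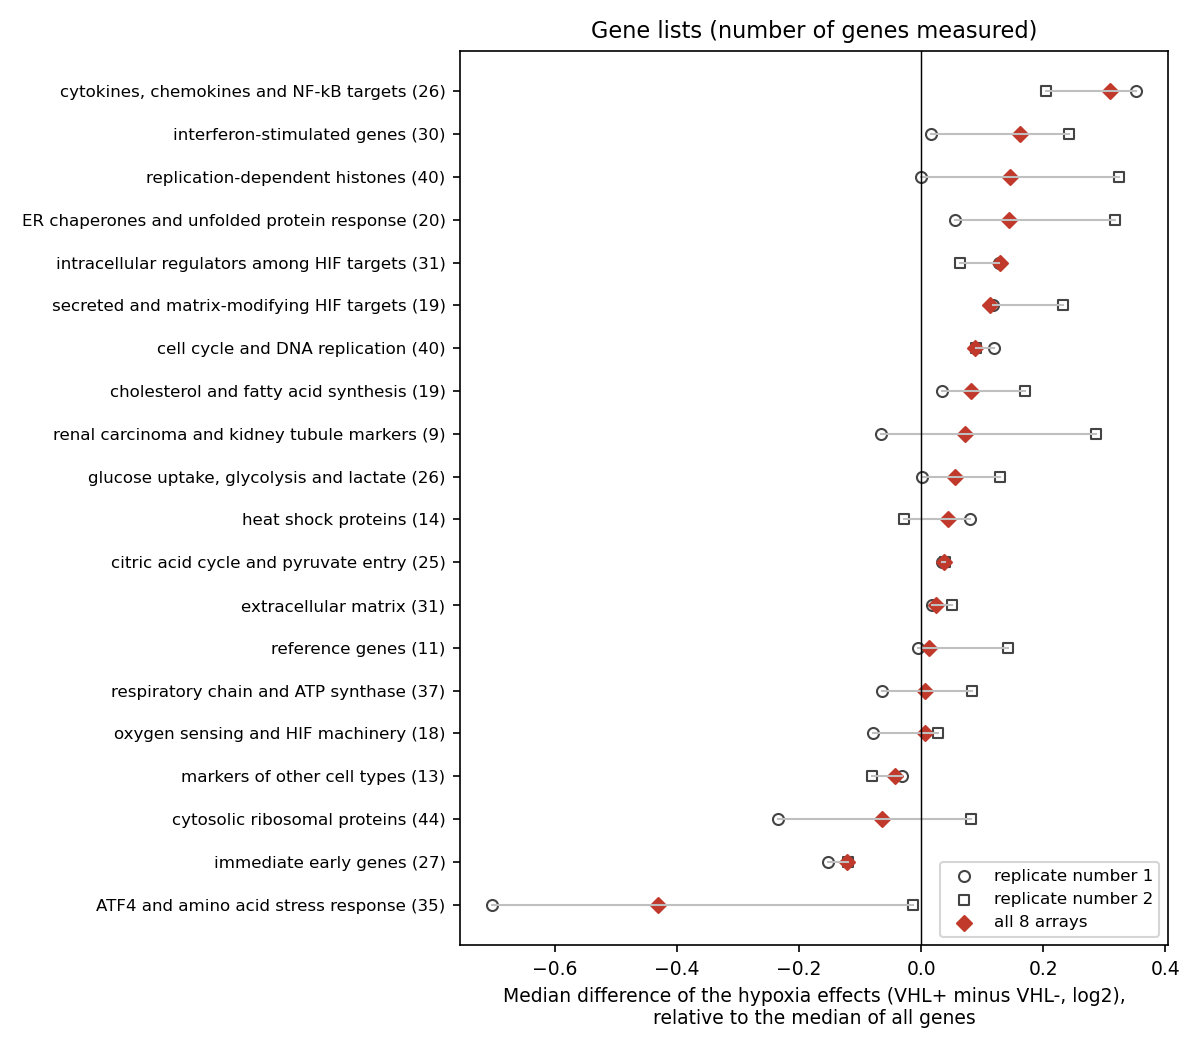
Median difference of the hypoxia effects (VHL+ minus VHL-, log2) of 20 gene lists, relative to the median of all genes (line at 0), with the number of genes measured in brackets. Diamonds are all 8 arrays, circles the arrays with replicate number 1 and squares those with number 2. The cytokine list is highest at 0.31 and the ATF4 list lowest at -0.43, and the symbols of the 2 replicates lie far apart for the ATF4 list. The lists were written with earlier results of these data known.

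In the other lists 0 genes passed, apart from CA12 among the 9 renal markers and TFRC among the 11 reference genes. Over all genes 0.331% passed as higher and 0.0217% as lower. The 20 ER chaperones and genes of the unfolded protein response had a median of 0.14 relative to all genes, with CRELD2 (0.66) and PDIA4 (0.52) as the smallest p values. For the 19 genes of cholesterol and fatty acid synthesis it was 0.08, with DHCR7 (0.64) and INSIG1 (0.50). It was 0.04 for the 14 heat shock proteins, with HSPA4 (0.49) and HSF1 (0.37), 0.04 for the 25 genes of the citric acid cycle and pyruvate entry, with IDH2 (0.61) and CS (0.36), and 0.01 for the 37 genes of the respiratory chain and ATP synthase, with COX7B (0.55) and NDUFA1 (0.54). The 44 cytosolic ribosomal proteins had a median of -0.06, with RPS21 (0.44) and RPS29 (0.43), the 27 immediate early genes -0.12, with EGR1 (-0.44) and CCN2, and the reference genes and renal markers 0.01 and 0.07. The 13 markers of other cell types had -0.04, with CD3E (0.30) and CD14 (0.26), both below the median on every array. With an array left out the differences ran from -0.16 to 1.16 for INSIG1 and from -0.97 to 0.0891 for EGR1. With all arrays, the genes named here that did not pass had an adjusted p from 0.318 to 0.703.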

How the data were processed

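RNA of 8 cultures had been hybridized to Affymetrix human gene arrays. Normalization by the authors is stated as Robust Multichip Average in Partek Genomic Suite (version not given in the sources used here). This method usually includes quantile normalization across arrays. The deposited arrays nevertheless differed in median log2 signal (6.60 to 6.91) and interquartile range (2.01 to 2.30). Whether that step had been applied to the deposited values cannot be told from the sources used here. The deposited table holds a log2 signal for each transcript cluster, which was used without further transformation. Symbols came from the platform annotation: 19460 clusters had 1 symbol, 1754 several and 12083 none, and a gene is represented by its 1-symbol cluster with the highest mean signal. All clusters were fitted with limma 3.58.1 in R 4.3.3, with 1 mean per group and the replicate number as a block (3 residual and infinite prior degrees of freedom), 2-sided, with Benjamini-Hochberg adjustment over 33297 clusters and a threshold of 0.05. The replicate numbers are not stated to pair the cultures. P values rest on the spread between these cultures alone. In the fit with the block this spread was pooled over all clusters, so that it was not that of the single gene. Members and the 20 gene lists were chosen with earlier results of these data known. Named were the 12 largest differences each way with the same sign in both replicates and after quantile normalization (filled up by the smallest p where fewer passed), VHL, EPAS1, HIF1A, ACTB, and per list up to 4 called members (2 of smallest p if there were none). Alternatives were quantile normalization, median centring, no block, trend and robust moderation, leaving out dim clusters, only clusters with 1 symbol, a minimum change of 1, an unmoderated model at an unadjusted p under 0.005, and each array left out. The fit was also run on simulated data, with noise drawn independently for each cluster and array and no shift of the median difference. That run could not show how the calls respond to the shift of these arrays. The number of arrays limits the precision.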

Additional observations from a re-analysis of the deposited data

Results flagged for a closer look

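A difference between the cell types in their response to hypoxia that passed the test was found for 28 of the named genes, 24 with a larger effect in VHL+ cells and 4 with a smaller one. Genes were named in part because they passed, so that this count follows from the naming rule. Over all genes 0.331% passed as higher and 0.0217% as lower. None of the 28 passed after quantile normalization or with no replicate block. The larger effects were those of CXCL8 (1.94), EDN2 (1.81), LOC151760 (1.49), CXCL1 (1.44), TFRC (1.43), APOL1 (1.42), SYTL3 (1.37), MAP7D2 (1.24), AHR (1.23), ICAM1 (1.21), NDRG1 (1.21), GAL3ST1 (1.19), LAMB3 (1.15), TNFAIP3 (1.15), EDN1 (1.10), CCND1 (1.04), PLIN2 (1.01), H3C12 (0.96), H2BC3 (0.95), SLC2A1 (0.95), H2BC14 (0.93), ADM (0.90), OAS1 (0.88) and CA12 (0.86), in log2 units. The smaller ones were those of TXNIP (-1.06), CTH (-1.02), PSAT1 (-0.87) and SMOX (-0.86).

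A further 6 named genes moved down with hypoxia on every array of VHL- cells and up on every array of VHL+ cells. They were CRELD2 (0.66) and PDIA4 (0.52) of the ER, the respiratory chain genes COX7B (0.55) and NDUFA1 (0.54), the ribosomal protein gene RPS29 (0.43) and the citrate synthase gene CS (0.36). None passed limma's test of the difference (adjusted p from 0.318 to 0.703), and the overlap of their ranges was not tested on its own. After quantile normalization their effects in VHL+ cells were from -0.014 (COX7B) and -0.0085 (CS) to 0.14 (CRELD2) and 0.23 (PDIA4), so that the opposite direction was gone for COX7B and CS, and RPS29 was below the array median on every array. The median difference of all clusters was 0.21, and its part in these opposite movements was not tested. The share of all genes with such opposite movements is not given here, so that the count has no background to be read against.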

How the results depend on the processing

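The counts of calls moved with nearly every setting. Clusters with a larger and a smaller hypoxia effect in VHL+ cells numbered 86 and 12, and they numbered 0 and 0 after quantile normalization, after median centring, and after quantile normalization with no replicate block, 2 and 0 with no replicate block, 19 and 0 with dim clusters left out, 136 and 3 with an unmoderated model at an unadjusted p under 0.005, 46 larger with a minimum change of 1, and 4 and 6 smaller with trend and robust moderation and with clusters of 1 symbol only. At an unadjusted p under 0.05 there were 1288 clusters after quantile normalization, 1289 after median centring, 963 after quantile normalization with no block and 1869 with no block, where chance gives 1665, against 2118 with the deposited values and the block. With each array left out the counts ran from 3 to 265 and from 0 to 17; the lowest came without VHL+ hypoxia replicate 1 (3 and 0) and VHL+ hypoxia replicate 2 (9 and 3), the highest without VHL+ normoxia replicate 2 (265 and 17), and 0 of the 67 calls with 1 symbol held in all 8 cases. Hypoxia vs. normoxia gave 220 clusters in VHL- and 336 in VHL+ cells, 0 and 1 after quantile normalization, median centring or quantile normalization with no block, 22 and 51 with no block, 76 and 156 with dim clusters left out, and 14 to 269 and 6 to 445 with an array left out. The block was kept as part of the comparison although the numbers are not shown to pair the cultures: deviations of same-numbered arrays correlated with r from 0.0503 to 0.605. Signs turned for VHL (-0.0335) after quantile normalization with or without the block and for ACTB (-0.0277 in both, -0.17 after median centring), DDIT4 (-0.191 and -0.152), CXCL3 (-0.0621 and -0.0859) and CXCL5 (-0.153 and -0.117). With an array left out they turned for ACTB (-0.0166 to 0.13, lowest without VHL- hypoxia replicate 1), INSIG1 (-0.16 to 1.16, lowest without VHL+ normoxia replicate 1), and, highest without VHL+ normoxia replicate 2, for HIF1A (-0.18 to 0.0394), EGR1 (-0.97 to 0.0891) and EREG (-1.29 to 0.15). They also turned for CCL2 (-0.494 to 2.34), DDIT4 (-0.165 to 0.315), CXCL2 (-0.0181 to 0.592), CXCL5 (-0.226 to 0.447) and IL11 (-0.29 to 0.214). Of these genes CCL2 had passed with all arrays.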
